A study of Mus musculus with 4 samples.

Results

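The 5 genes described here, Tle1, Tle2, Tle3, Tle4 and Tle6, encode transducin-like enhancer of split proteins, the mouse relatives of Drosophila Groucho. They were taken by name from the 32285 genes counted in each single-cell RNA library. The cells were sorted by tdTomato fluorescence from cerebella of mouse embryos at stage E14.5. Control embryos were Atoh1-Cre/+; R26LSL-tdT/+, and En1/2 conditional knockout (CKO) embryos carried in addition the alleles En1lox/lox and En2lox/lox. Both groups therefore carried the Atoh1-Cre driver, which is active in the rhombic lip lineage, and the Cre-dependent tdTomato reporter. No control carried the lox alleles without recombination of En1 and En2, and animals were pooled for each library. There were 2 control and 2 CKO libraries, so each p-value of CKO against control measures the spread between pools. For comparisons of cells within libraries it measures the spread of the within-library difference across pools.

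Groucho/TLE proteins do not bind DNA themselves. Transcription factors recruit them through short peptide motifs, among them the eh1 motif of Engrailed and the WRPW end of the Hes proteins, and the bound complex represses the target gene together with histone deacetylases. Engrailed 1 and 2 pattern the midbrain and cerebellum, and the TLE proteins are the best-known corepressors through which Engrailed acts. Tle1 to Tle4 are full-length members, Tle6 is a diverged member, and Tle5 (older symbol Aes) is a short relative that lacks the motif-binding domain and is described only beside them.

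Kept cells had 500 or more genes, 1000 or more unique molecular identifiers (UMIs, 1 per captured transcript) and no more than 10% of UMIs from mitochondrial genes. Levels are UMIs of a gene per 1000000 UMIs (CPM) of the summed cells of a library and class. Each captured transcript gives 1 tag at its 3′ end, so levels are not divided by length. Kept cells were divided by which of 2 transcription factor genes had more UMIs. Pax6 > Meis2 cells numbered 1801 and 961 in control replicates 1 and 2, and 1208 and 2978 in CKO replicates 1 and 2. Meis2 > Pax6 cells numbered 603, 2322, 573 and 372 in the same order, and the remaining 1728 cells had equal counts. Pax6 marks the granule cell lineage and Meis2 the excitatory cerebellar nuclei neurons. The summed level of 9 granule lineage markers was 3443 to 3953 CPM in Pax6 > Meis2 cells and 2048 to 3347 in Meis2 > Pax6 cells. For 8 markers of excitatory nuclei neurons it was 117 to 519 and 2322 to 3090. Meis2 > Pax6 cells thus also carried RNA of granule lineage markers, and both CKO libraries carried more of it than both controls. The first list includes Pax6 and the second Meis2, so part of these contrasts was set by the division itself. Pax6 alone was at 673 to 1115 CPM in Pax6 > Meis2 cells, and Meis2 alone at 1279 to 1861 CPM in Meis2 > Pax6 cells.

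The libraries differed in more than genotype. They held 14998150 to 33709450 UMIs over 4983 to 7083 barcodes. Pax6 > Meis2 cells had a median depth of 3238 and 2339 UMIs (controls 1 and 2) against 13722 and 9818 UMIs (CKO 1 and 2). For Meis2 > Pax6 cells it was 2617, 2171, 3110 and 2248. Markers of red blood cells summed to 1412 CPM in Pax6 > Meis2 cells of control replicate 2 and 993 CPM in CKO replicate 1, and to 30.6 and 2.84 CPM in control replicate 1 and CKO replicate 2. In Meis2 > Pax6 cells they summed to 63.1 and 3689 CPM (controls 1 and 2) against 22.2 and 4.50 CPM (CKO 1 and 2). Xist stood at 0.606 CPM over all kept cells of control replicate 1 and at 438 to 2254 in the other libraries, so the pools differed in sex. Between 5 and 12 barcodes of each library also occurred in another. The part of depth, preparation and sex in the results below was not tested, and preparation and genotype cannot be told apart.

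The deletion was read from the counts of the targeted genes. In Pax6 > Meis2 cells En2 had 109 and 134 CPM (controls) against 22.1 and 17 CPM (CKO), and in Meis2 > Pax6 cells 257 and 188 against 46.8 and 43.8. It fell by 2.51 (SE 0.24, adjusted p = 0.0115) in the first class and by 2.24 (SE 0.23, adjusted p = 0.0177) in the second on the log2 scale in the edgeR quasi-likelihood fits described below. En1 was at 171, 237, 93 and 212 CPM in Pax6 > Meis2 cells and at 562, 462, 347 and 743 in Meis2 > Pax6 cells, with overlapping groups in both. The counted tags are 3′ tags, and which part of each gene is deleted is not stated in the sources used here, so the En1 level does not check the labels.

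The members lie at separate loci, except for one pair (GENCODE M21, GRCm38). Tle1 (ENSMUSG00000008305) spans chr4:72117142-72200919 on the minus strand, Tle3 (ENSMUSG00000032280) chr9:61372366-61418497 on the plus strand and Tle4 (ENSMUSG00000024642) chr19:14448150-14598051 on the minus strand. Tle2 (ENSMUSG00000034771) spans chr10:81574561-81590845 on the plus strand. Tle6 (ENSMUSG00000034758) lies beside it on the minus strand at chr10:81590904-81601073, with 58 bp between their 3′ ends. Tags counted at 3′ ends that face each other this closely can be assigned to the neighbour, and the sources used here do not state whether counting used strand, so the split between Tle2 and Tle6 is uncertain. An antisense gene within Tle1, Gm11250, had 6, 2, 1 and 11 UMIs in the 4 libraries.

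The promoters of the 4 full-length members are shown because Tle1 stood on the opposite side from Tle2, Tle3 and Tle4 in the knockout comparison. Each run holds 250 bases before to 50 after the start site in RefSeq (GRCm38.p6), 5′ to 3′ on the gene's strand, and for Tle4 the more upstream of its 2 start sites was taken. Capitals mark CACGTG, an E-box, the kind of site that basic helix-loop-helix factors bind; this motif was chosen after the letters had been seen.
Tle1, chr4:72200844-72201143, minus strand: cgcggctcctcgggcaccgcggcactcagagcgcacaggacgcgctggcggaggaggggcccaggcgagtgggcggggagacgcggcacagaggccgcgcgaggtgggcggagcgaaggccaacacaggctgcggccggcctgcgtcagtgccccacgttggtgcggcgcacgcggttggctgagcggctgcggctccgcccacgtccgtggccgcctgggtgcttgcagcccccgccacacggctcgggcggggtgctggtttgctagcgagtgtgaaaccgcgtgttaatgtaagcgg
Tle2, chr10:81575037-81575336, plus strand: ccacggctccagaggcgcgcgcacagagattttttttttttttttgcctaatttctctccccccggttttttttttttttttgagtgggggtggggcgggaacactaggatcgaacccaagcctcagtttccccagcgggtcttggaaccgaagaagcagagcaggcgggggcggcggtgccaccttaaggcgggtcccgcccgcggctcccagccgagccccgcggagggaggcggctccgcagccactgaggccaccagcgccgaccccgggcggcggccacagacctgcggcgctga
Tle3, chr9:61372116-61372415, plus strand: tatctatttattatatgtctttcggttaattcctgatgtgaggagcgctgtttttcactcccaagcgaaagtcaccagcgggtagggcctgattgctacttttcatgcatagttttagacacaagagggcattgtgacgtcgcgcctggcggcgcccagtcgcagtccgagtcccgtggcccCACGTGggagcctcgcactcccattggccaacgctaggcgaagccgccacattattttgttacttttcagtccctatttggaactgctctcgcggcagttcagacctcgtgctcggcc
Tle4, chr19:14598134-14598433, minus strand: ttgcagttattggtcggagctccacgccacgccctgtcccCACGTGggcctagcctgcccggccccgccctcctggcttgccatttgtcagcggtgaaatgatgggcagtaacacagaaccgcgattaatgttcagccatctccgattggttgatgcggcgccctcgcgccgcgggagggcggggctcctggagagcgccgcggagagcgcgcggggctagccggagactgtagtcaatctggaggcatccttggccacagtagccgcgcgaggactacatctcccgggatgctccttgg
CACGTG, which reads the same on both strands, was found 68 bases before the start site of Tle3 and 210 bases before that of Tle4, and not in the windows of Tle1 and Tle2. The upstream window of Tle6 held it at 183 and 119 bases before the start. Of all 32851 promoter windows of this length, 7.15% held it. The homeodomain core TAATTA, the kind of site that Engrailed binds, also reads the same on both strands. It was in none of the windows of the 5 members and in 5.29% of all windows. The GC box GGGCGG, counted on both strands, occurred 4 times in Tle1, 4 times in Tle2, 2 times each in the upstream windows of Tle4 and Tle6 and 0 times in Tle3, and was present in 35.7% of all windows. No 2 matches of different motifs shared a base in these windows. These matches describe letters only.

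In control cells the order of the family differed between the classes. Among Pax6 > Meis2 cells of the controls the order was Tle1 (159 ± 3.37, SD, n = 2), Tle4 (89.4 ± 27.9), Tle3 (32.5 ± 5.36), Tle2 (9.34 ± 2.06) and Tle6 (7.43 ± 5.60). Tle2 and Tle6 did not differ beyond their spread. Among Meis2 > Pax6 cells of the controls Tle4 came first (290 ± 36.1), then Tle1 (136 ± 15.1), Tle3 (51.2 ± 1.13), Tle2 (46.8 ± 15.8) and Tle6 (19.5 ± 12.8). Tle3 and Tle2 did not differ beyond their spread there.

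In the CKO libraries Tle1 led in both classes. Its level was 201 ± 30.4 CPM in Pax6 > Meis2 cells, with Tle4 at 52.6 ± 13.9, Tle3 at 17.3 ± 1.37, Tle6 at 1.90 ± 1.13 and Tle2 at 1.24 ± 0.803 (SD, n = 2). The values in Meis2 > Pax6 cells were 276 ± 42.7, 112 ± 45.2, 21.2 ± 0.216, 5.41 ± 0.293 and 14.6 ± 0.788 in the same order of genes. Tle6 and Tle2 did not differ beyond their spread in the first class.

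**Figure D1:**
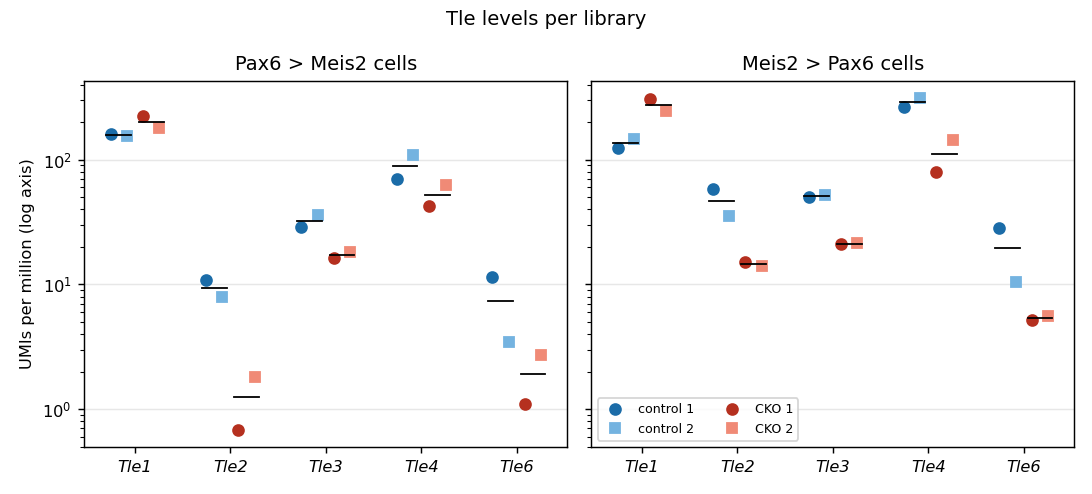
Level of each Tle gene (CPM, log axis) in Pax6 > Meis2 cells (left) and Meis2 > Pax6 cells (right); each point is a library, blue for control, red for CKO, and bars are group means (n = 2). In both panels both CKO points of Tle1 lie above both control points, and those of the other 4 genes lie below.

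The main comparison asked how each member differed between CKO and control within a class of cells. UMIs were summed per library and class and fitted with edgeR, with p-values adjusted over all genes by the Benjamini-Hochberg method and a threshold of 0.05. In the plain levels both CKO libraries stood above both controls for Tle1, and below both controls for Tle2, Tle3, Tle4 and Tle6, in each class. All 5 members were thus without overlap in both classes, where 47.6% of the 13931 genes tested in Pax6 > Meis2 cells and 44.3% of the 11804 tested in Meis2 > Pax6 cells were without overlap as well. In those classes 12.6% and 19.8% of genes had both CKO libraries above, and 34.9% and 24.6% had both below. On the TMM-scaled levels of the fits the split was even, with 22.9% and 21.95% above and 23.5% and 22.6% below, and 1 member stood above and 4 below in each class there too. By the edgeR test 0 of the 5 members were called in either class, beside 0.0574% of genes (8) in Pax6 > Meis2 cells and 0.212% (25) in Meis2 > Pax6 cells. At an unadjusted p under 0.05 there were 4 of 5 members in the first class, beside 9.82% of genes, and 5 of 5 in the second, beside 14.7%. DESeq2 called 1 member in the first class, beside 0.629% of the 14141 genes it gave an adjusted p, and 4 in the second, beside 3.13% of 5997.

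Tle4 had the highest level of the family in control Meis2 > Pax6 cells. Its level in Meis2 > Pax6 cells was 264 and 315 CPM (519 and 1904 UMIs) in control replicates 1 and 2, against 79.9 and 144 CPM (353 and 256 UMIs) in CKO replicates 1 and 2. The groups stood well apart, and CKO replicate 2 was the nearer to the controls. The log2 fold change was −1.36 (SE 0.28, adjusted p = 0.0975). Pax6 > Meis2 cells had 69.6, 109, 42.8 and 62.4 CPM of Tle4 in the same order of libraries. Here the gap between the groups was narrow, between control replicate 1 and CKO replicate 2, and the log2 fold change was −0.63 (SE 0.27, adjusted p = 0.499). Markers of excitatory nuclei neurons in these Pax6 > Meis2 cells were at 179, 519, 201 and 117 CPM, highest in the library with the most Tle4, and their part in the result was not tested.

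Tle1, the leading member in granule-lineage cells, stood on the other side. Meis2 > Pax6 cells had 125 and 146 CPM of Tle1 (246 and 885 UMIs) in the controls, against 306 and 246 CPM (1352 and 437 UMIs) with the deletion. Each CKO library was well above either control. The log2 fold change was 1.06 (SE 0.23, adjusted p = 0.103). Tle1 in Pax6 > Meis2 cells was at 161, 156, 223 and 180 CPM, the controls close together and CKO replicate 2 nearer to them than CKO replicate 1. There the log2 fold change was 0.47 (SE 0.23, adjusted p = 0.510).

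Tle2 had the largest fold difference of the 5 members in Pax6 > Meis2 cells. There it was at 10.8 and 7.88 CPM (126 and 25 UMIs) in the controls, against 0.676 and 1.81 CPM (11 and 53 UMIs) in CKO. Both CKO libraries were far under either control. The log2 fold change was −2.74 (SE 0.45, adjusted p = 0.0905). In the Meis2 > Pax6 class it was at 58.0, 35.6, 15.2 and 14 CPM, the CKO libraries close together under both controls. There the log2 fold change came to −1.58 (SE 0.28, adjusted p = 0.0657).

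Tle3 was the most even member between replicates of Meis2 > Pax6 cells. It was at 50.4 and 52.0 CPM (99 and 314 UMIs) in the controls, against 21.0 and 21.4 CPM (93 and 38 UMIs) in CKO. Replicates of a group were nearly equal, and the log2 fold change was −1.24 (SE 0.22, adjusted p = 0.0704). The levels in Pax6 > Meis2 cells were 28.7, 36.3, 16.3 and 18.2 CPM, and the log2 fold change there was −0.77 (SE 0.22, adjusted p = 0.311). In this class the gap was narrower in the cells that did not meet the definition of intact cells given below. Tle3 was at 38.8 and 38.6 CPM (controls) against 34.8 and 31.3 CPM (CKO) in them. With each Pax6 > Meis2 cell thinned to 1000 UMIs, the shares of cells with a Tle3 UMI overlapped. They were 3.5% and 2.4% (controls) against 2.6% and 2.3% (CKO).

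Tle6 was low and uneven. Meis2 > Pax6 cells had 28.5, 10.4, 5.21 and 5.62 CPM of it in the same order of libraries, from 56, 63, 23 and 10 UMIs. Pax6 > Meis2 cells had 11.4, 3.47, 1.11 and 2.70 CPM. Control replicate 1 stood apart in both classes, above the rest. The log2 fold change was −1.69 (SE 0.48, adjusted p = 0.170) in the first of these classes. In the second it was −1.92 (SE 0.54, adjusted p = 0.303). The short relative Tle5 had overlapping groups in both classes, at 283, 235, 311 and 257 CPM in Pax6 > Meis2 cells and 257, 236, 352 and 244 in Meis2 > Pax6 cells.

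**Figure D2:**
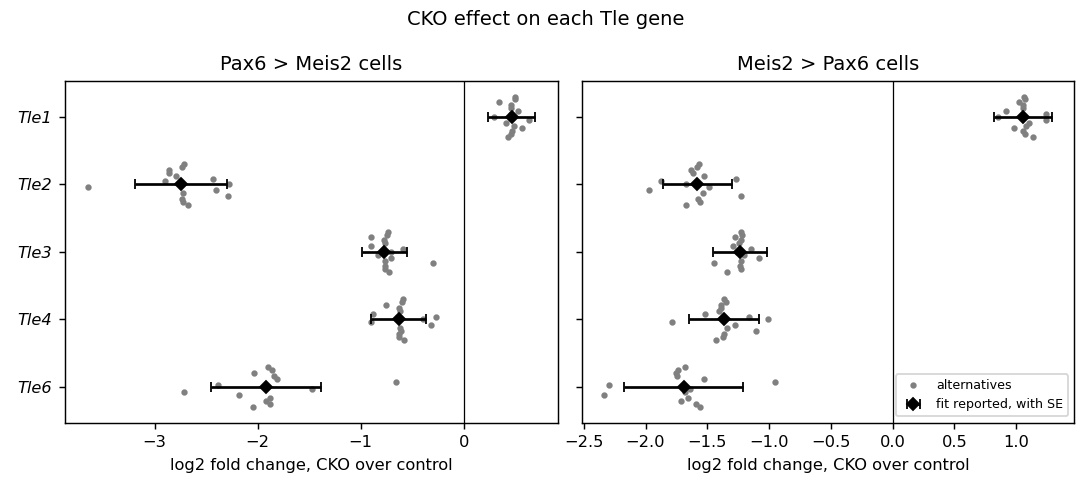
Log2 fold change of CKO over control for each Tle gene in Pax6 > Meis2 cells (left) and Meis2 > Pax6 cells (right); diamonds are the fits reported with their SE, and grey points are the alternative fits (15 for most genes). Every point of Tle1 lies above 0 and every point of the other 4 genes lies below 0.

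The side on which each member stood did not change in any alternative fit, while the calls did. Since the groups did not overlap, leaving out 1 library could hardly change the side. All alternatives also drew on the same 4 libraries. They include the fits without shared barcodes and with crossed replicate numbers, chosen after the data were seen. The crossed fit called 5 members and 763 genes in Meis2 > Pax6 cells, and 2 members and 207 genes in Pax6 > Meis2 cells. With no low-count filter 559 and 348 genes were called in these classes, beside 25 and 8 in the fits reported. For Meis2 > Pax6 cells Tle1 passed the threshold in 4 of 15 alternatives, Tle2 in 9 of 15, Tle3 and Tle4 in 6 of 15 each and Tle6 in 3 of 14; DESeq2 called Tle1, Tle2, Tle3 and Tle4 (adjusted p = 0.00389, 0.00819, 0.0289 and 0.000743). Without control replicate 1 the adjusted p was 0.0313 for Tle2, 0.0118 for Tle3 and 0.00275 for Tle4. Without control replicate 2 it was 0.000248 for Tle2 and 0.00119 for Tle6. Without CKO replicate 2 it was 0.0104, 0.0160, 0.0147 and 0.00334 for Tle1 to Tle4. For Pax6 > Meis2 cells Tle2 passed in 4 of 15 alternatives and Tle6 in 3 of 14. Among these was the fit without CKO replicate 2, where their adjusted p was 0.00117 and 0.0310, and DESeq2 called Tle2 (adjusted p = 0.000514).

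Several measures of cell state differed between the groups in the same cells. The summed cycling markers (6 of 6 found) in Meis2 > Pax6 cells were at 369 and 244 CPM for the controls, against 773 and 511 CPM for CKO, and 5 of 5 glial and progenitor markers at 542 and 389 against 875 and 779 CPM. Of 7 GABAergic neuron markers, summing to 22.9 and 22.2 against 12.0 and 12.4 CPM, Ptf1a was at 0 in all 4 libraries. Malat1, a nuclear long noncoding RNA, was at 70677 and 85459 against 28384 and 58606 CPM. Pax6 > Meis2 cells had 31620 and 59646 against 13567 and 26250 CPM of it. The part of these measures in the Tle levels was not tested. Microglial markers summed to 61.1 CPM in control replicate 2 of the Meis2 > Pax6 class. Meningeal markers summed to less than 2 CPM in each library and class.

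The order of the groups was then read in intact cells, defined by 4000 or more UMIs and no more than 5% of them mitochondrial. Among Meis2 > Pax6 cells 55 and 123 control cells and 168 and 85 CKO cells met this. Tle4 was at 178, 232, 59.8 and 109 CPM in them, and Tle1 at 110, 132, 287 and 215, so neither gene's groups overlapped. In the cells of the same class that did not meet it Tle4 was higher in each library, at 293, 327, 130 and 211. Tle1 was higher there too, at 130, 148, 352 and 305. In intact Pax6 > Meis2 cells the CKO mean of Tle4 was 0.755 of the control mean, and the groups of Tle6 overlapped.

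The family was also described by its sum and its make-up. All 5 members together were at 297 ± 22.2 CPM in control and 274 ± 13.3 in CKO Pax6 > Meis2 cells, and at 543 ± 23.7 and 429 ± 2.23 in Meis2 > Pax6 cells (SD, n = 2 each). Tle1 made up 23.8% and 26.2% of the family UMIs in control Meis2 > Pax6 cells, against 71.6% and 57.1% in CKO cells. Tle4 made up 50.2% and 56.3% against 18.7% and 33.4%. Among Pax6 > Meis2 cells Tle1 made up 57.2% and 49.95% (controls) against 78.5% and 67.85% (CKO). Tle1 thus held a larger share in each CKO library than in each control, in both classes. With 2 libraries against 2 the smallest p of an exact two-sided permutation test is 0.333, so these shares were not tested.

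The ratio of Tle1 to Tle4 UMIs does not depend on the other genes of a library. There were 0.474 and 0.465 Tle1 UMIs per Tle4 UMI in Meis2 > Pax6 cells of the controls, against 3.83 and 1.71 with the deletion. For Pax6 > Meis2 cells the ratio was 2.31, 1.43, 5.20 and 2.88. The cells with equal Pax6 and Meis2 counts, which entered neither class, gave 0.851, 0.877, 5.03 and 1.95. Tle4 exceeded Tle1 in both controls and Tle1 exceeded Tle4 in both CKO libraries, in the Meis2 > Pax6 cells and in those with equal counts.

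**Figure D3:**
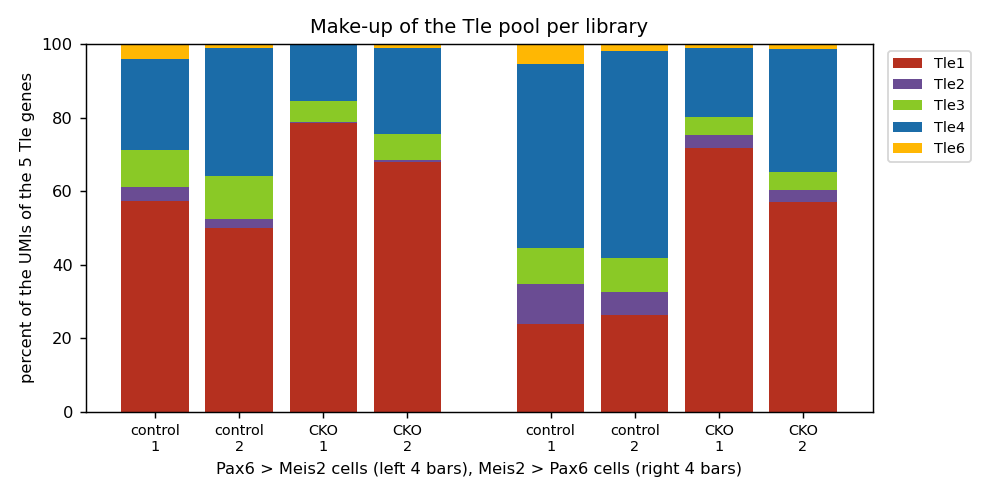
Share of each member among the UMIs of the 5 Tle genes (percent) in each library, for Pax6 > Meis2 cells (left 4 bars) and Meis2 > Pax6 cells (right 4 bars). Tle1 is 23.8% and 26.2% of the family in the control Meis2 > Pax6 cells and 71.6% and 57.1% in the CKO cells.

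Shares of cells with a UMI were compared at equal depth. Each cell was thinned to 2000 UMIs, which left out 180, 1000, 143 and 150 Meis2 > Pax6 cells and 467, 385, 165 and 719 Pax6 > Meis2 cells as too shallow. A Tle4 UMI was then seen in 35.5% and 39.9% of control Meis2 > Pax6 cells (95% exact binomial intervals 30.9 to 40.2 and 37.2 to 42.6) and in 15.6% and 24.3% of CKO ones (12.3 to 19.4 and 18.8 to 30.5). A Tle1 UMI was seen in 21.7% and 23.3% against 48.6% and 37.8% (intervals 17.9 to 26.0, 21.0 to 25.7, 43.8 to 53.4 and 31.4 to 44.6). For neither gene did the interval of a CKO library overlap that of a control; these intervals cover counting error only. Thinned to 1000 UMIs, which kept all cells, the Tle1 interval of CKO replicate 2 (15.2 to 23.5) did overlap that of control replicate 1 (10.7 to 16.2). Without thinning the mean share of Meis2 > Pax6 cells with a Tle4 UMI was 42.3 ± 0.302% and 33.9 ± 1.07%, and with a Tle1 UMI 28.6 ± 1.98% and 58.8 ± 11.7% (SD, n = 2 each).

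The thinned shares of Pax6 > Meis2 cells with a Tle1 UMI were 28.4% and 25.7% (controls) against 37.6% and 29.9% (CKO). For Tle4 they were 12.5% and 18.2% against 8.92% and 10.5%. Intervals overlapped here between CKO replicate 2 and control replicate 1, at 28.0 to 31.8 and 26.0 to 30.9 for Tle1 and at 9.26 to 11.8 and 10.8 to 14.4 for Tle4. Without thinning the mean Tle4 share there was 25.8 ± 1.11% for controls and 32.7 ± 1.09% for CKO, the reverse order, in cells of very different depth. Free RNA was gauged in cells with at least 30% haemoglobin UMIs, a type that should lack these genes. There were 17 of them with a median of 5310 UMIs, taken over all libraries (3, 11, 3 and 0 in the same order). Of the 15 deep enough to thin 1 had a Tle1 UMI, with an exact upper limit of 31.9%. A UMI of the other members was in 0 of them, which allows a share of up to 20% by 3 counts of the total and 21.8% by the exact interval. Among Meis2 > Pax6 cells the exact limits lay below the Tle4 shares of both controls and CKO replicate 2 and the Tle1 shares of both CKO libraries, and among Pax6 > Meis2 cells below the Tle1 share of CKO replicate 1. They did not lie below the other shares of Tle1 and Tle4 or any share of Tle2, Tle3 or Tle6, so free RNA at those levels was not tested by so few cells. The limits were pooled over libraries, while free RNA can differ between them. With 0 such cells from CKO replicate 2, free RNA in that library was not gauged, and it was not tested in any library alone. Cells with UMIs of both Tle1 and Tle4 made up 10.2%, 10.3%, 8.14% and 9.46% of thinned Meis2 > Pax6 cells, where the product of the separate shares would give 7.71%, 9.29%, 7.57% and 9.20%.

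The classes were then compared within libraries, which share their preparation and sorting. This fit called 51.2% of 13146 genes. The share called higher in Meis2 > Pax6 cells was 25.0%, and that called lower was 26.3%. Of the members 4 were higher and 0 lower. Tle2 was 2.88 (SE 0.21, adjusted p = 1.02e-07), Tle6 1.45 (SE 0.24, adjusted p = 0.000239), Tle4 1.32 (SE 0.094, adjusted p = 9.84e-08) and Tle3 0.42 (SE 0.11, adjusted p = 0.00660) higher on the log2 scale. Each of Tle2, Tle4 and Tle6 was higher in Meis2 > Pax6 cells in all 4 libraries, as the levels above show. Tle2 and Tle4 passed in all 12 alternatives. With each cell thinned to 1000 UMIs, Tle6 (adjusted p = 0.138) and Tle3 (0.395) did not pass; Tle3 also did not pass with DESeq2 (0.0959), without CKO replicate 1 (0.122) or in intact cells (0.152).

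Tle1 showed no common class difference (0.05, SE 0.093, adjusted p = 0.685). It was lower in Meis2 > Pax6 cells of both controls (125 against 161 and 146 against 156 CPM) and higher in those of both CKO libraries (306 against 223 and 246 against 180). Fitted apart, the class difference was −0.25 in the controls (SE 0.13, adjusted p = 0.173; 33.8% of genes called there). It was 0.35 in the CKO libraries (SE 0.13, adjusted p = 0.0455; 38.6% called). The difference of the 2 was tested directly, as the difference of the CKO effect between the classes, and was 0.60 (SE 0.19, adjusted p = 0.485).

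That test called 0 of the 5 members, beside 0.114% of genes (15 of 13146). At an unadjusted p under 0.05 there were 3 members, beside 5.64% of genes, and DESeq2 called 0, beside 0.0975%. The differences were 1.18 for Tle2 (SE 0.41, adjusted p = 0.626), −0.43 for Tle3 (SE 0.22, adjusted p = 0.962), −0.76 for Tle4 (SE 0.19, adjusted p = 0.260) and 0.18 for Tle6 (SE 0.46, adjusted p = 1.00). Tle4 passed in 4 of 12 alternatives, among them the fits without control replicate 1 (−0.64, adjusted p = 0.0145) and without control replicate 2 (−0.86, adjusted p = 0.000637). Tle1 passed without control replicate 2 (0.83, adjusted p = 0.00308) and Tle2 without CKO replicate 2 (2.12, adjusted p = 0.0149).

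Among granule-lineage cells the members were compared along differentiation. Atoh1 marks the precursors and Neurod1 their differentiating progeny. In Neurod1 > Atoh1 against Atoh1 > Neurod1 cells of the same library, the fit called 42.6% of 13153 genes, 21.9% of them upward and 20.7% downward as shares of all tested. Tle3 was at 14.9, 20.7, 7.91 and 9.27 CPM (TMM-scaled) in Atoh1 > Neurod1 cells and at 34.8, 37.8, 22.9 and 24.2 in Neurod1 > Atoh1 cells. It was higher in the latter in each library and rose by 1.34 (SE 0.12, adjusted p = 4.16e-09), in all 11 alternatives as well.

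Tle4 and Tle1 moved the other way along this step. Tle4 was at 78.0, 99.7, 49.3 and 82.2 in Atoh1 > Neurod1 cells and at 58.4, 84.9, 39.5 and 48.3 in Neurod1 > Atoh1 cells, lower in each library, and fell by 0.51 on the log2 scale (SE 0.083, adjusted p = 2.44e-05). Tle1 fell by 0.25 (SE 0.069, adjusted p = 0.00550), from 167, 198, 251 and 195 to 141, 138, 211 and 174. Both sides included cycling cells, which are set apart in the states below. Among non-cycling cells Tle1 was again lower in each library, but Tle4 was not. There Tle4 was at 54.6, 69.7, 30.9 and 56.6 CPM in Atoh1 > Neurod1 cells and at 64.1, 69.0, 25.5 and 31.8 in Neurod1 > Atoh1 cells. The part of cycling cells in the falls of both genes was not tested. With cells thinned to 1000 UMIs neither passed (adjusted p = 0.0869 and 0.279), and Tle1 did not pass without CKO replicate 1 (0.0534). Tle2 (0.62, SE 0.36, adjusted p = 0.180) and Tle6 (−0.10, SE 0.27, adjusted p = 0.796) were not called; without control replicate 2 Tle2 was (1.02, adjusted p = 0.0105). Tle5 rose by 0.27 (SE 0.087, adjusted p = 0.0144), a call lost without control replicate 1 (adjusted p = 0.105), CKO replicate 1 (0.236) or CKO replicate 2 (0.280) and with DESeq2 (0.250). With thinned cells it was 0.0403 (adjusted p = 0.838).

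Among Meis2 > Pax6 cells, those with more Tbr1 + Lmx1a UMIs, which mark medial cerebellar nuclei neurons, were set against those with more Pou3f1 + Irx3 UMIs. The first held 44, 267, 75 and 26 cells and the second 97, 517, 170 and 61, so this fit was shallow, and 7.99% of 8528 genes passed (4.58% of all were higher in Tbr1 + Lmx1a cells, 3.40% lower). Tle2 was at 82.0, 54.9, 17.2 and 19.7 CPM (TMM-scaled) in Pou3f1 + Irx3 cells and at 29.0, 13.6, 10.1 and 43.3 in Tbr1 + Lmx1a cells, the last from 4 UMIs. It was lower in 3 of 4 libraries and, over all 4, fell by 1.29 (SE 0.37, adjusted p = 0.0256). It was not called without control replicate 1 (adjusted p = 0.0546), without control replicate 2 (0.511) or by DESeq2 (0.419). Tle1 (−0.01), Tle3 (0.46), Tle4 (0.14) and Tle6 (−0.74) were not called, with adjusted p from 0.418 to 0.990. Tle5 fell by 0.59 (SE 0.17, adjusted p = 0.0305), a call that was lost without control replicate 1 (adjusted p = 0.190), control replicate 2 (0.0675) or CKO replicate 1 (0.0640) and with thinned cells (0.0753).

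Across 7 states, made by dividing Pax6 > Meis2 cells into cycling, Atoh1 > Neurod1, Neurod1 > Atoh1 and remaining cells, and Meis2 > Pax6 cells into Tbr1 + Lmx1a, Pou3f1 + Irx3 and remaining cells, the order of the groups was mostly kept. Both CKO libraries were above both controls for Tle1 in 6 of 7 states. Both were below both controls in 6 states for Tle2, 5 for Tle3, 4 for Tle4 and 6 for Tle6, and the other states overlapped. In the order in which the states are named, 10.5%, 14.4%, 14.6%, 15.3%, 14.8%, 18.9% and 19.9% of the genes tested in the class had both CKO libraries above. Both were below for 28.2%, 21.0%, 31.5%, 17.3%, 17.5%, 28.0% and 18.0%. Some of these orders rest on few UMIs. In non-cycling Atoh1 > Neurod1 cells of control replicate 2, Tle3 and Tle6 had 1 UMI each (5.81 CPM), beside 5.66 CPM of Tle3 in CKO replicate 2. In Tbr1 + Lmx1a cells Tle6 had 1 and 0 UMIs in the CKO libraries. Tle1 overlapped in the non-cycling Atoh1 > Neurod1 cells, at 204 and 221 CPM (controls) and 273 and 212 CPM (CKO). The 3 states of Meis2 > Pax6 cells did not overlap for Tle4, from 223 to 337 CPM for controls against 67.5 to 193 CPM for CKO. Within Pax6 > Meis2 cells, Tle4 did not overlap in the Neurod1 > Atoh1 state, at 64.1, 69.0, 25.5 and 31.8.

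**Figure D4:**
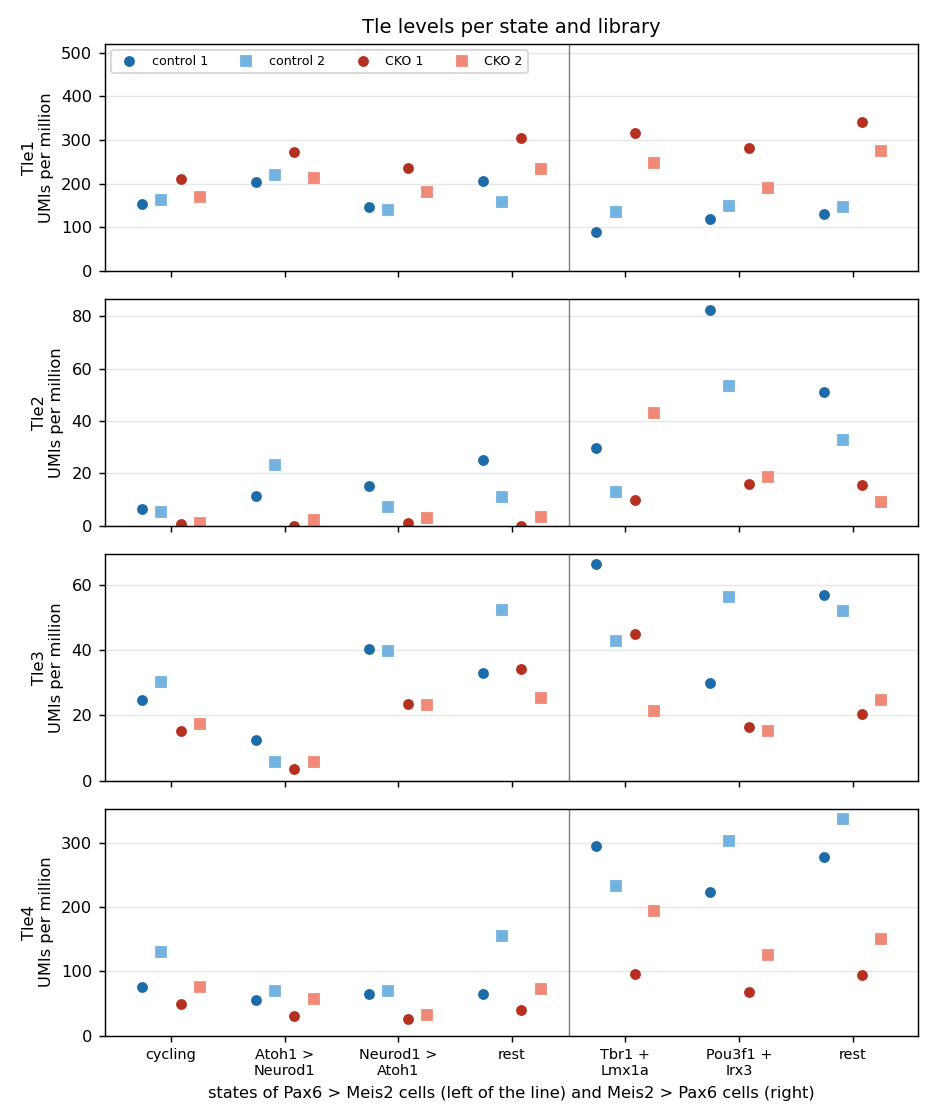
Level of Tle1, Tle2, Tle3 and Tle4 (CPM) in 7 states; each point is a library, blue for control, red for CKO. Tle4 is highest in the states of Meis2 > Pax6 cells of the controls, Tle3 is lowest in the Atoh1 > Neurod1 state, and the CKO points of Tle1 lie above the controls in 6 of 7 states.

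Over the 28 sums of library and state the genes most like each member were ranked by Pearson correlation of log2(CPM + 1), among 7235 genes with a mean of at least 20. These sums share libraries and depth, and the values are a description. Nearest to Tle4 were Negr1, a neuronal adhesion protein (r = 0.909), and the long noncoding RNAs Mir100hg (0.907) and Mir99ahg (0.905). Nearest to Tle2 were Ppp1r17, a phosphatase inhibitor (0.901), Cnpy1 (0.894) and the chromatin protein gene Arid4a (0.894). Nearest to Tle3 were Agtpbp1, a tubulin deglutamylase (0.873), the scaffold gene Ank2 (0.869) and the cannabinoid receptor gene Cnr1 (0.861).

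For Tle1 the values were lower, with the ubiquitin-conjugating enzyme gene Ube2d3 (0.743), Khdrbs3 (0.734) and Stx8 (0.718) nearest. For Tle6 they were Dcp1b, which encodes an mRNA decapping factor (0.785), Zmiz1 (0.748) and Rfx3 (0.727). Within the family Tle2 and Tle4 had an r of 0.775. Tle1 was negatively related to the other 4 members, with r from −0.421 for Tle2 to −0.617 for Tle6.

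Transcription factors taken as able to recruit TLE proteins formed a list of 31 genes, called recruiting factors below. Whether each of them, Hey1 among them, binds TLE proteins was not checked here. Of these, 20 were tested in the knockout comparison of Pax6 > Meis2 cells and 12 in that of Meis2 > Pax6 cells, and En2 was the one gene edgeR called, lower in both. DESeq2 also called Pax5 in the first class and Barhl1 and Hey1 in the second. Over all genes edgeR called 0.0574% and 0.212% in these classes, and DESeq2 0.629% and 3.13%. The median log2 fold change of the list was 0.24 and 0.30, beside −0.01 and −0.01 over all genes tested. Of 17 other corepressor and deacetylase genes 0 were called in either class by edgeR or DESeq2 (1 in each at an unadjusted p under 0.05), with medians of 0.21 and 0.20. Of 8 relatives and regulators tested 0 were called by edgeR or DESeq2 (0 at an unadjusted p under 0.05), with medians of −0.06 and −0.03.

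Between the classes 5 of 17 recruiting factors tested were higher and 10 lower in Meis2 > Pax6 cells. Of all genes tested in this fit 25.0% were called higher and 26.3% lower. The counts of each list here stand beside those shares. The midbrain-hindbrain genes Pax5 (3.36), Pax2 (2.50), En1 (1.53) and En2 (0.97) were higher on the log2 scale, and so was Uncx. Lower were Otx2 (−3.05), the Notch effector gene Hes1 (−1.98), the Wnt pathway gene Tcf7l1 (−1.91) and Msx2 (−1.70). Pax2 is also a marker of GABAergic cells, and its call was lost without CKO replicate 1 (adjusted p = 0.365). Of 17 corepressor genes 2 were higher, among them Bcor (1.14), and 8 lower, with Rbbp7 (−0.74), Hdac1 (−0.69), Rbbp4 (−0.59) and Ctbp1 (−0.32) the largest. Ctbp1 was not called without CKO replicate 1 (adjusted p = 0.0729) or CKO replicate 2 (0.130). Rbbp4, Rbbp7 and Hdac1 encode histone-binding and deacetylase subunits. Of 8 relatives and regulators Hipk2 (0.39), Huwe1 (0.35) and Hipk1 (0.26) were higher and Csnk2a2 (−0.30) was lower; Hipk2 and casein kinase 2 are kinases known to phosphorylate Groucho proteins. Without CKO replicate 1 or CKO replicate 2 Hipk1, Csnk2a2 and Huwe1 were not called (adjusted p from 0.0755 to 0.295), nor was Hipk1 without control replicate 1 (0.105). Thinned cells gave no call for Tcf7l1 (adjusted p = 0.285), Hdac1 (0.155), Ctbp1 (0.131), Hipk1 (0.0939) or Csnk2a2 (0.104), and DESeq2 none for Hipk1 (0.268) or Csnk2a2 (0.0592).

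Along granule cell differentiation 3 of 17 recruiting factors rose, Pax5 (0.66), Otx2 (0.66) and Uncx (0.38), and 10 fell. Of all genes tested in this fit 21.9% were called upward and 20.7% downward. The largest falls were in Hes1 (−2.16), Hes5 (−1.77), Tcf7l2 (−1.48) and Tcf7l1 (−1.45). Of 17 corepressor genes Kdm1a rose (0.26), and Rbbp7 (−0.48), Sin3a (−0.31) and Rbbp4 (−0.27) were among the 6 that fell. The call of Kdm1a was lost without CKO replicate 1 (adjusted p = 0.0599) and with thinned cells (0.14, adjusted p = 0.339), where Sin3a stood on the other side (0.14, adjusted p = 0.710). In Tbr1 + Lmx1a against Pou3f1 + Irx3 cells Pax5 (−1.38), En2 (−0.87) and Hes6 (−0.57) were lower, of 8 recruiting factors tested. Over all genes tested in that fit 3.40% were called lower and 4.58% higher. Without control replicate 2 En2 (adjusted p = 0.138) and Hes6 (0.0673) were not called, and neither was Hes6 without CKO replicate 1 (0.347) or CKO replicate 2 (0.0529). Neither was called with DESeq2 (0.162 and 0.0593) or thinned cells (0.236 and 0.0782). In that comparison 0 of 17 corepressor genes were called by edgeR or DESeq2 (0 at an unadjusted p under 0.05), beside 6.16% of all genes called by DESeq2 and 20.3% at that unadjusted p. In the test of the difference of the CKO effect between the classes 0 genes of these 3 lists were called by edgeR or DESeq2, while 3 recruiting factors, 0 corepressor genes and 0 relatives had an unadjusted p under 0.05.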

How the data were processed

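The authors deposited raw counts of UMIs per gene and cell barcode, made with Cell Ranger 5.0.0 per the file headers and with mm10 per the submitters' processing notes. The annotation and the strand setting of the counting are not given in the sources used here. Counts were summed over the kept cells of each of the 4 libraries and class, or state. Levels are these sums per 1000000 UMIs (CPM) of the same cells. Fits used edgeR 4.0.16 (R 4.3.3): filterByExpr, TMM factors, the quasi-likelihood F test (two-sided) and Benjamini-Hochberg adjustment over all genes tested, with the library as block where classes or states of a library were compared. TMM shifted the median of all genes in Pax6 > Meis2 cells from −0.135 with library totals to −0.0104 on the log2 scale. DESeq2 1.42.0, other filters, leaving out libraries, intact cells and thinned cells were alternatives. Doublets were kept in the main fits; the cells with the highest simulated scores (32 to 124 per library) were removed as an alternative. The fits were tested on simulated data with the same dispersion for every gene. Of simulated log2 changes of 1, the knockout fits called 20.4% in Pax6 > Meis2 cells and 16.2% in Meis2 > Pax6 cells. Of changes of 2 they called 86.7% and 93.9%, and of unchanged genes 0.0521% and 0.0352%.

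The members and lists were chosen with earlier results of these data known. The genes named were the 5 members, En1, En2 and Tle5. In each comparison up to 4 called genes of each list were named each way by size, and for each member the 3 most alike genes. One listed corepressor gene is not reported here by name. Uncx is named beyond that limit in the class comparison. Malat1, Xist and Gm11250 were chosen after their values were seen, and so were the fits without shared barcodes and with crossed replicate numbers. Groups come from the labels. The CACGTG motif was searched in RefSeq promoters, and coordinates of genes come from GENCODE M21.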

Additional observations from a re-analysis of the deposited data

How the results depend on the processing

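No member changed direction in the knockout comparisons of either class under any alternative. With groups that did not overlap, leaving out 1 library could hardly change a direction. In Pax6 > Meis2 cells, where 0 members and 8 genes were called, 2 members and 348 genes were called with no low-count filter and 1 member and 89 genes with DESeq2. Leaving out 1 library gave 0 to 2 members and 2 to 123 genes. The number of genes was 1 in intact cells, 3 with thinned cells, 1 without shared barcodes and 4 with a margin of 2 UMIs between Pax6 and Meis2. In Meis2 > Pax6 cells, where 0 members and 25 genes were called, it was 5 members and 559 genes with no filter, 4 and 188 with DESeq2, 1 and 42 in intact cells, and 2 and 72 with the margin. There 10 genes were called with doublets removed and 4 with thinned cells, and leaving out 1 library gave 0 to 4 members and 44 to 751 genes. The cause of these moves was not tested. The fits differed in how many genes they tested, so these numbers are not shares of genes. For DESeq2 the shares were 0.629% of 14141 genes in Pax6 > Meis2 cells and 3.13% of 5997 in Meis2 > Pax6 cells.

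Same-numbered libraries share only a number in the labels, and their deviations correlated at −0.160 and −0.213 over genes. With the replicate block 0 genes were called in Pax6 > Meis2 cells, where En2 lost its call (−2.52, adjusted p = 0.408 by edgeR), and 2 members and 58 genes in Meis2 > Pax6 cells. With the numbers crossed, chosen after seeing the data, 2 members and 207 genes and 5 members and 763 genes were called in these classes.

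Between classes, thinning left 2 members and 3704 genes. For the difference of the CKO effect, 1 member and 84 genes were called with no filter, 1 and 70 in intact cells, 49 genes with thinned cells, and 0 to 2 members and 28 to 422 genes when 1 library was left out. Along granule cell differentiation 1 member and 2127 genes were called with thinned cells and 3731 genes with DESeq2. For Tbr1 + Lmx1a against Pou3f1 + Irx3 cells 0 members and 425 genes were called with DESeq2, 0 and 182 with thinned cells, and 0 to 1 members and 423 to 522 genes when 1 library was left out. The intact-cell fit of that comparison was not run, since a side held under 5 cells in a library.

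Reversals concerned values that were not called, except in Hdac3 and Sin3a. For the knockout in Pax6 > Meis2 cells En1 was 0.34 with thinned cells and −0.98 to 0.18 without 1 library, and Tle5 −0.10 in intact cells. In Meis2 > Pax6 cells En1 was −0.48 in intact cells and −0.47 to 0.56 without 1 library, and Tle5 −0.0633 in intact cells, −0.15 with thinned cells and −0.00094 to 0.60 without 1 library. Between classes Tle1 was −0.0308 with no filter, −0.0242 in intact cells and −0.069 to 0.13 without 1 library, Tle5 0.21 in intact cells, and with thinned cells Hdac3 0.0337 and Sin3a 0.0626. For the difference of the CKO effect Tle6 was −0.34 in intact cells, −0.0480 with thinned cells and −0.46 to 0.82 without 1 library. There En2 was −0.36 in intact cells and −0.019 to 0.56 without 1 library, and Tle5 −0.0585 with no filter, −0.30 with thinned cells and −0.14 to 0.23 without 1 library. Along differentiation Tle6 was 0.22 in intact cells and −0.46 to 0.18 without 1 library, En1 −0.071 to 0.18 without 1 library and Sin3a 0.14 with thinned cells. For the last comparison Tle1 was 0.0247 with library totals and −0.10 to 0.036 without 1 library.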
